A study of Mus musculus with 45 samples.

Results

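The respiratory chain genes are the protein-coding genes whose symbols name subunits of complexes I to V: mt-Nd, mt-Co, mt-Cytb and mt-Atp genes, Nduf a, b, c, s and v genes, Uqcr, Cox4 to Cox8, Atp5 and Sdh a to d. This rule took in 102 of 35675 annotated mouse genes, 13 encoded in mitochondrial DNA and 89 in the nucleus. The nuclear genes were 37 of complex I, 4 of complex II with 4 assembly factors of that complex (Sdhaf1 to Sdhaf4, which the Sdh pattern also matches), 8 of complex III, 18 of complex IV and 18 of complex V. Complex V includes a second gene entry with the symbol Atp5o, which held 233 reads in all libraries together and was among the genes tested. A further symbol match, a pseudogene, was left out. Of the 102 genes, 100 passed the filter on low counts. Cox7b2 had 2 reads in all libraries together, and Cox8c was not detected, for which a count of 0 allows up to 3 reads.

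Gene expression was measured by poly-A-selected bulk RNA-seq in 45 mouse libraries, 15 groups of 3. Every group carried the Pax7-nGFP transgene on a C57BL6;DBA2 background, a nuclear GFP reporter of the muscle stem cell factor Pax7. Mouse embryonic fibroblasts (MEFs) with MyoD under doxycycline (Dox) control were taken before treatment, and on days 2, 4, 6, 8 and 10 of Dox alone or of Dox with the small molecules that the labels abbreviate F/R/C. MyoD, the muscle transcription factor, turns MEFs into multinucleated myotubes, and with F/R/C into induced myogenic progenitor cells (iMPCs). The other groups were established bulk iMPCs, grown in F/R/C after 13 days of Dox with F/R/C, iMPCs sorted for Pax7-nGFP, bulk primary myoblasts from skeletal muscle, and sorted Pax7-nGFP+ myoblasts. The study describes the established iMPCs as Dox-independent clones, and the labels used here give neither how many clones nor the age of any animal. They do not say that the 3 samples of a group are separate cultures or animals, so p-values measure only the spread between these samples.

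Depth ran from 15.6 to 36.3 M reads per library, with a median of 22.1 M. Bulk myoblast replicate 3 stood apart from its group: 12 muscle differentiation genes summed to 1165 CPM (read counts scaled to library size) there, against 33394 and 19271 CPM in replicates 1 and 2. The sorted libraries were quantified with another effective length setting than all other libraries (transcript length minus effective length plus 1 had a median of 180.0 bases, against 152.8 bases). The setting and the sort therefore cannot be told apart, which bears directly on TPM. Any other difference in handling that goes with this setting would bear on counts too, and was not tested. In bulk samples, fewer cells of a type and less RNA per cell cannot be told apart.

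The respiratory chain sits in the inner mitochondrial membrane. Complexes I, III and IV pump protons as they pass electrons from NADH to oxygen, complex II feeds in electrons from succinate, and complex V, the ATP synthase, uses the proton gradient to make ATP. Mitochondrial DNA encodes some core subunits of complexes I, III and IV and part of the proton channel of complex V. It is read as long transcripts that are cut into separate mRNAs, whereas each nuclear subunit has a gene and promoter of its own and is imported into the organelle. Oxidative muscle is rich in mitochondria, and heart and skeletal muscle use their own isoforms of 3 small complex IV subunits.

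The mitochondrially encoded and the nuclear genes had different profiles across the 15 groups. Summed over the 13 mitochondrial genes, in kCPM or 1000 CPM, the level was 16.9, 14.9 and 16.7 kCPM in MEFs and 18.1, 17.9 and 15.5 kCPM after 2 days of MyoD alone. It was 23.2, 28.3 and 28.4 on day 4, 25.9, 39.1 and 25.2 on day 6, 33.8, 52.3 and 34.9 on day 8 and 22.8, 47.7 and 23.7 kCPM on day 10. MEFs and day 2 overlapped, and every library of MyoD alone from day 4 on lay above every MEF library. On days 6, 8 and 10 replicate 2 was the highest of the 3 libraries. That library on day 10 also had the highest summed muscle differentiation genes (16484, 36213 and 10249 CPM in replicates 1, 2 and 3). It had the lowest summed proliferation genes (521, 60.3 and 478 CPM) and fibroblast genes (30529.4, 14004.5 and 20729.7 CPM). The part of these in its mitochondrial level was not tested.

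With F/R/C the mitochondrial sum was 18.7, 20.95 and 18.8 kCPM on day 2, 27.7, 41.3 and 37.3 on day 4, 38.0, 64.5 and 36.2 on day 6, 36.1, 48.6 and 41.9 on day 8 and 34.6, 44.3 and 41.7 kCPM on day 10. Replicate 2 was the highest of the 3 libraries on each of these days, as on days 6, 8 and 10 of MyoD alone. On day 10 of F/R/C, muscle differentiation genes were highest in replicate 3 (13694, 18876 and 23137 CPM in replicates 1, 2 and 3). Proliferation genes were lowest in replicate 3 (1290, 1094 and 585 CPM) and fibroblast genes in replicate 2 (3333, 1447.5 and 5470.5 CPM). Both treatments overlapped on days 4, 6, 8 and 10 and did not overlap on day 2. Sorted Pax7+ myoblasts had the highest group mean, 56.6, 58.3 and 89.2 kCPM, followed by bulk iMPCs at 55.7, 38.0 and 48.9 kCPM. Sorted Pax7+ iMPCs were at 20.9, 28.7 and 27.2 kCPM, below every library of both of those groups. Bulk myoblasts were widely scattered, at 19.8, 42.1 and 14.7 kCPM, and overlapped both MEFs and bulk iMPCs.

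The nuclear genes spanned a narrower range. Their sum was 7.83, 7.69 and 6.88 kCPM in MEFs, and with MyoD alone it was 8.24, 9.63 and 9.22 on day 2, 8.30, 9.84 and 8.999 on day 4 and 7.32, 8.67 and 7.33 kCPM on day 10. In the F/R/C series it was 10.4, 13.3 and 12.7 on day 2, 12.5, 15.6 and 15.3 on day 4 and 11.1, 11.0 and 10.9 kCPM on day 10. On each of the 5 days every library with F/R/C lay above every library of MyoD alone, with the highest mean of all groups on day 4 of F/R/C (14.5 ± 1.68 kCPM, SD, n = 3). Bulk iMPCs were at 12.3, 11.2 and 11.8, sorted Pax7+ iMPCs at 11.3, 11.6 and 11.4, bulk myoblasts at 10.3, 9.71 and 9.33 and sorted Pax7+ myoblasts at 8.88, 8.17 and 11.6 kCPM. Bulk and sorted iMPCs overlapped here, unlike in the mitochondrial sum.

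Reads of mitochondrial genes per read of nuclear genes came to 2.17 ± 0.243 (SD, n = 3) in MEFs and 1.62 ± 0.167 on day 2 of F/R/C, the lowest group mean. The ratio was 4.96 ± 0.977 on day 8 of MyoD alone, 4.02 ± 0.588 in bulk iMPCs, 2.24 ± 0.333 in sorted Pax7+ iMPCs and 7.06 ± 0.646 in sorted Pax7+ myoblasts. The lowest sorted myoblast library, at 6.37, lay above all other libraries. In deposited TPM, which allows for transcript length, the mitochondrial genes held 22.5% ± 4.81 of all TPM in sorted Pax7+ myoblasts and 3.49% ± 0.367 in MEFs. Relative to MEFs the sorted myoblast level was 4.21-fold in CPM and 6.44-fold in TPM, the one group where both scales differed by more than 1.5 times.

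**Figure D1:**
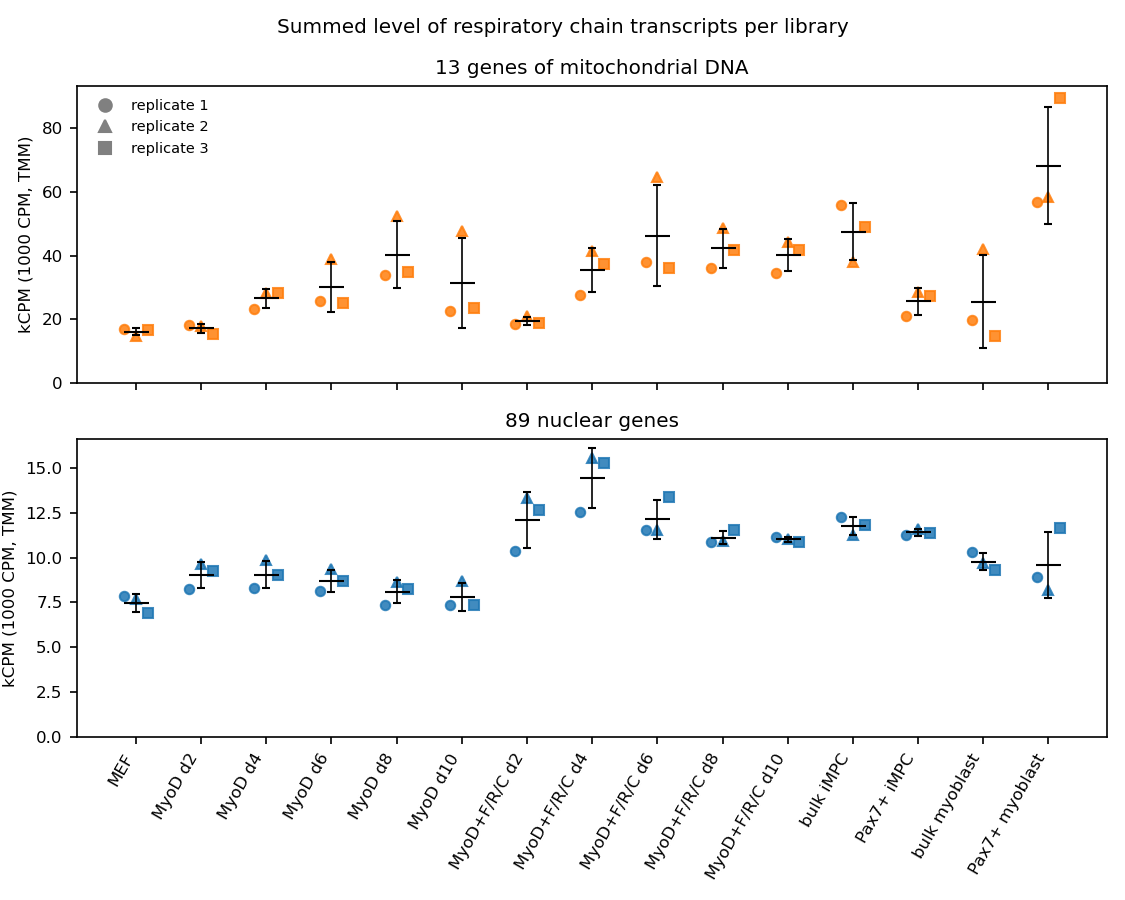
Summed level (kCPM, scaled with TMM factors) of the 13 mitochondrially encoded and the 89 nuclear respiratory chain genes in each of the 45 libraries, by group. Points are libraries, with a horizontal bar at the group mean and error bars of 1 SD (n = 3); the nuclear sum lies higher with F/R/C than with MyoD alone on every day, and the mitochondrial sum is highest in sorted Pax7+ myoblasts.

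Addition of F/R/C went with higher nuclear respiratory chain genes on every day, with small changes in most of them. A gene was called at an adjusted p under 0.05 in edgeR's quasi-likelihood test, adjusted over all 17325 genes tested. Against MyoD alone on the same day, 33 of the 87 nuclear genes tested rose on day 2 and 0 fell, where 3.43% of all genes rose and 4.65% fell. On day 4, 56 rose and 0 fell (11% and 12.2% of all genes), and on day 6, 42 rose and 0 fell (12.3% and 14.5%). Day 8 had 40 up and 2 down (15.4% and 17.8%), and day 10 had 43 up and 3 down (18.3% and 22.7%). On the log2 scale (log2 change below means log2 fold change, SE its standard error), the median of the nuclear genes was 0.40 on day 2, 0.64 on day 4, 0.45 on day 6, 0.40 on day 8 and 0.41 on day 10, while the median of all genes lay between -0.07 and 0.00. On day 2 the count fell to 10 without MyoD alone replicate 1 or without F/R/C replicate 3, to 12 without F/R/C replicate 2, and to 21 and 20 without MyoD alone replicates 2 and 3.

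Averaged over the 5 days, 69 nuclear genes rose and 2 fell of 87, against 28.7% and 32.8% of all genes. Under a minimum of 2-fold, 3 genes were called, all higher, against 11.6% of all genes higher and 10.5% lower. By complex, 26 of 37 nuclear complex I genes rose, all 4 of complex II, 7 of 8 of complex III, 15 of 16 of complex IV and 16 of 18 of complex V. The medians were 0.34, 0.54, 0.53, 0.54 and 0.48 on the log2 scale. Of the 4 assembly factors of complex II, 1 rose and 2 fell. The 12 proliferation genes all rose in the same average (median log2 fold change 1.36), and of the 12 muscle differentiation genes 0 rose and 1 fell. The 12 fibroblast genes summed to 12634 to 25164 CPM on day 4 of MyoD alone and to 2657 to 5509 CPM with F/R/C. On day 10 these sums were 14004.5 to 30529.4 CPM and 1447.5 to 5470.5 CPM. The parts of proliferation and of fibroblast content in the respiratory chain difference were not tested.

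In complex I, the entry point for NADH, Ndufa9, an accessory subunit of its peripheral arm, stood at 55.3, 63.2 and 60.5 CPM on day 4 of MyoD alone and at 110.2, 169 and 158 CPM with F/R/C. The groups did not overlap, and the log2 fold change of 1.29 with SE 0.15 and adjusted p = 5.0e-07 was the third largest among nuclear genes called on that day. Ndufa4, long listed with complex I and now placed in complex IV, had the highest TPM of the complex I symbols, with a mean of 523 TPM over all libraries. It was at 88.2, 100.4 and 105 CPM and 146, 178 and 176 CPM on day 4 without and with F/R/C, again with no overlap (log2 change 0.77, SE 0.19, adjusted p = 0.0033). Ndufa13, a subunit also known as Grim19, went the other way late: 107, 139 and 97.5 CPM on day 10 of MyoD alone and 86.8, 76.7 and 98.7 CPM with F/R/C. The lowest library of MyoD alone lay inside the range with F/R/C, and the log2 fold change of -0.39 with SE 0.15 and adjusted p = 0.031 passed the test. Ndufa3, another accessory subunit, also fell on day 10 (log2 change -0.33, SE 0.12, adjusted p = 0.033).

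Ndufa4l2, a relative of Ndufa4 known for its induction by hypoxia, was close to absent from some groups. It stood between 0 and 0.264 CPM in all MEF and MyoD alone libraries, and at 2.186, 2.48 and 15.2 CPM on day 10 of F/R/C. Bulk iMPCs had 17.1, 9.25 and 32.3 CPM and sorted Pax7+ iMPCs 20.9, 9.54 and 4.496 CPM, against at most 0.224 CPM in both myoblast groups. It rose with F/R/C relative to MyoD alone on days 6, 8 and 10 (adjusted p = 0.021, 0.003 and 4.7e-04). Replicate 3 held most of the reads on these days, and no fold is given because the MyoD alone libraries held a few reads at most.

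Complex II, succinate dehydrogenase, is the only complex without a mitochondrially encoded subunit. Sdhc, a membrane anchor, was at 105, 119 and 108 CPM on day 4 of MyoD alone and at 135, 148 and 153 CPM with F/R/C (log2 change 0.39, SE 0.12, adjusted p = 0.014). The groups did not overlap. Sdhaf2, the factor that attaches flavin to the catalytic subunit, moved in the opposite direction. It was at 43.2, 46.4 and 42.5 CPM on day 10 of MyoD alone and at 32.1, 29.9 and 32.4 CPM with F/R/C, all 3 libraries lower (log2 change -0.48, SE 0.10, adjusted p = 1.9e-04). On day 2 it was at 44.2, 45.6 and 38.9 and 46.1, 45.6 and 42.3 CPM, which overlapped. Sdhaf1, which helps insert iron-sulfur clusters, also fell in the average over days (log2 change -0.23, SE 0.07, adjusted p = 0.0091).

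In complex III, which passes electrons to cytochrome c, Uqcr11 was at 77.9, 85.3 and 78.3 CPM on day 2 of MyoD alone and 119, 162 and 153 CPM with F/R/C. This small subunit had the largest called nuclear difference of day 2 (log2 change 0.84, SE 0.23, adjusted p = 0.021), and the groups did not overlap. Uqcrh, the hinge protein and the complex III gene with the highest TPM (548 TPM on average), was at 85.4, 103 and 87.9 CPM on day 10 of MyoD alone and 161, 157 and 174 CPM with F/R/C (log2 change 0.83, SE 0.15, adjusted p = 9.2e-05), without overlap. Among ubiquitous complex IV genes, Cox5b had the highest TPM (840.3 TPM on average) and was at 117, 146 and 137 CPM and 206, 261 and 246 CPM on day 4 (log2 change 0.83, SE 0.19, adjusted p = 0.0013). Both ranges were apart there too.

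The ATP synthase gene Atp5b, which encodes the catalytic beta subunit, had the highest TPM of all nuclear members (1891 TPM on average). It was at 1012, 1116 and 955 CPM on day 10 of MyoD alone and 1609, 1548 and 1377 CPM with F/R/C (log2 change 0.56, SE 0.16, adjusted p = 0.0058). Atp5a1, the alpha subunit, was at 499.8, 619 and 558 and 1065, 1104 and 1041 CPM on the same day (log2 change 0.94, SE 0.14, adjusted p = 9.9e-06). Neither gene overlapped between treatments. Atp5g1, which encodes a ring subunit, was at 116, 132 and 132 CPM on day 2 and 168, 233 and 228 CPM with F/R/C (log2 change 0.73, SE 0.19, adjusted p = 0.013), and Atp5o, of the stalk, also rose on that day (log2 change 0.68, SE 0.13, adjusted p = 0.0012).

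Whether the F/R/C effect itself changed between day 2 and day 10 was tested as an interaction. Of 100 members, 2 were called, both lower, against 3.47% of all genes higher and 5.17% lower: Ndufa13 (log2 change -0.65, SE 0.21, adjusted p = 0.043) and Sdhaf2 (log2 change -0.54, SE 0.14, adjusted p = 0.015). Leaving out any 1 of the 12 libraries left 0 or 1 of these calls. Of the mitochondrial genes 0 were called, 0 by DESeq2 and 0 at an unadjusted p under 0.05 in edgeR, so a difference in their F/R/C effect between these days was not detectable here.

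For the mitochondrial genes the F/R/C difference did not pass the test on most days. Of 13, 0 were called on days 2, 4 and 8, 1 on day 6 (mt-Co2, a complex IV core subunit, log2 change 0.80, SE 0.30, adjusted p = 0.044) and 1 on day 10 (mt-Nd6, log2 change 1.18, SE 0.32, adjusted p = 0.004). By DESeq2 0, 1 and 0 were called on days 2, 4 and 8, and 0, 2 and 0 had an unadjusted p under 0.05 in edgeR. The median log2 fold changes were 0.19, 0.44, 0.65, 0.10 and 0.36 on days 2, 4, 6, 8 and 10. Averaged over days, 7 of 13 rose and 0 fell (28.7% and 32.8% of all genes), from 0.29 for mt-Co3 to 0.66 for mt-Nd6 among those called, and the median was 0.31. Those called were mt-Nd1, mt-Nd3, mt-Nd6, mt-Co2, mt-Co3, mt-Atp6 and mt-Atp8, of complexes I, IV and V. The others, mt-Nd2, mt-Nd4, mt-Nd4l, mt-Nd5, mt-Cytb of complex III and mt-Co1, lay between 0.17 and 0.31 and did not pass. Leaving out single libraries gave 0 to 3 on day 6, and 1 on day 4 without F/R/C replicate 1. On day 10 the count was 8 without MyoD alone replicate 2 and 2 without F/R/C replicate 3, and in the average it was 12 without MyoD alone day 10 replicate 2 and 11 without any 1 of 4 others (F/R/C day 4 replicate 1, F/R/C day 6 replicate 3, and MyoD alone replicate 2 of day 6 or 8).

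**Figure D2:**
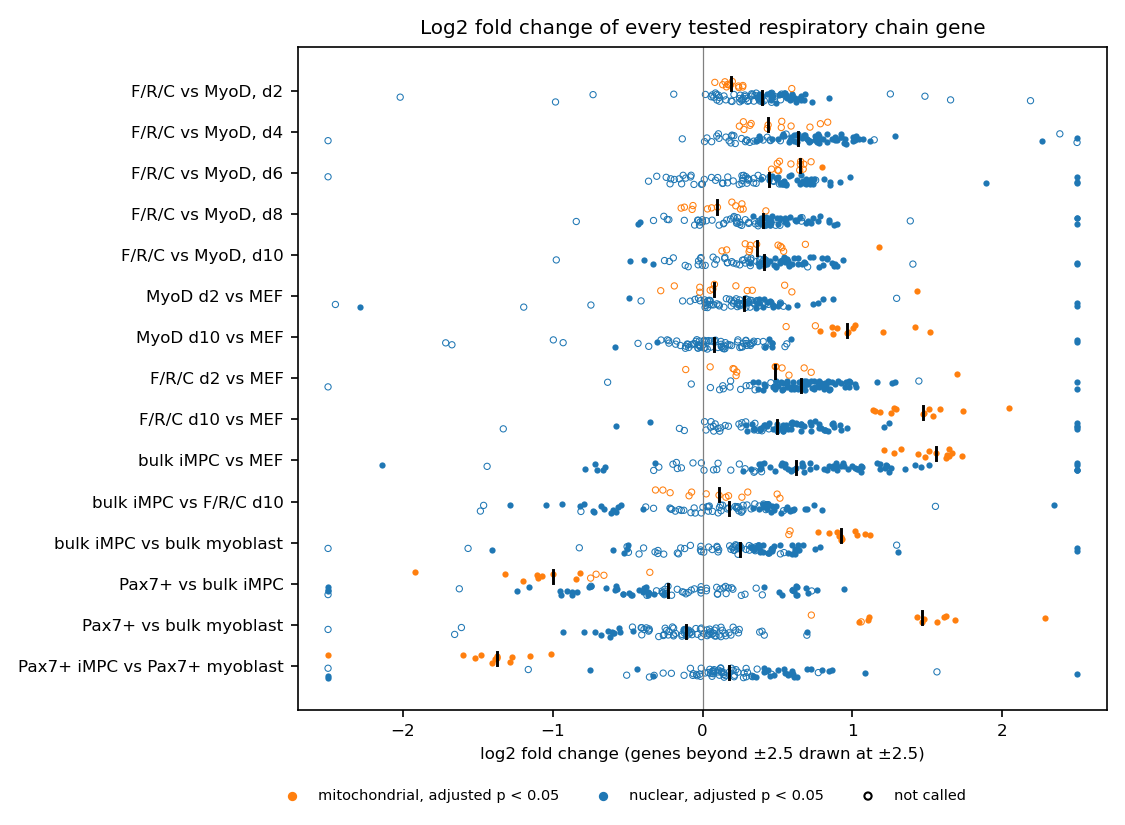
Log2 fold change of each respiratory chain gene in each comparison, with mitochondrially encoded and nuclear genes drawn apart; points are genes, filled where called at an adjusted p under 0.05, vertical bars are medians, and the few genes beyond 2.5 in either direction are drawn at the edge. Nuclear genes lie mostly above 0 with F/R/C against MyoD alone, and all 13 mitochondrial genes lie below 0 in sorted Pax7+ iMPCs against sorted Pax7+ myoblasts.

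Against untreated MEFs, MyoD alone and MyoD with F/R/C had different counts for the nuclear genes on both day 2 and day 10. These comparisons share the 3 MEF libraries. On day 2 of MyoD alone 1 of 13 mitochondrial genes rose and 23 of 87 nuclear genes rose and 2 fell, against 20.5% of all genes higher and 15.9% lower. On day 10 of MyoD alone 11 mitochondrial genes rose while 8 nuclear genes rose and 2 fell (19.3% and 10% of all genes). With F/R/C, day 2 had 1 mitochondrial and 72 nuclear genes higher and 0 lower (19.1% and 14.9%), and day 10 had all 13 mitochondrial and 60 nuclear genes higher and 2 nuclear genes lower (28.3% and 24.8%). The median log2 fold changes on day 10 were 0.97 for mitochondrial and 0.08 for nuclear genes with MyoD alone, and 1.47 and 0.50 with F/R/C.

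The 26 members called on day 2 of MyoD alone became 11 without its replicate 2, and 17 without its replicate 3 or MEF replicate 3. On day 10 the 21 became 4 without MyoD alone replicate 2, 11 without MEF replicate 1 and 13 without MEF replicate 3.

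The single mitochondrial gene called on day 2 in both routes was mt-Nd3, a small core subunit of complex I, at 116, 104 and 109 CPM in MEFs, 258, 335 and 294 CPM with MyoD alone and 301, 418 and 351 CPM with F/R/C. Both treated groups lay wholly above MEFs (log2 change 1.43, SE 0.33, adjusted p = 0.0011 and log2 change 1.70, SE 0.34, adjusted p = 2.0e-04). In contrast mt-Co1, the catalytic core of complex IV, was at 5147, 4248 and 4535 CPM in MEFs and 4202, 4004 and 3273 CPM on day 2 of MyoD alone. Every day 2 library lay below the MEF range, and the log2 fold change of -0.28 with SE 0.31 and adjusted p = 0.5 did not pass the test. By day 10 mt-Co1 stood at 5931, 12575 and 6849.7 CPM with MyoD alone and 7975, 10906 and 12008 CPM with F/R/C, above MEFs in all 6 libraries (log2 change 0.86, SE 0.31, adjusted p = 0.034 and log2 change 1.15, SE 0.31, adjusted p = 0.0025). The 11 mitochondrial calls of MyoD alone on day 10 fell to 1 without its replicate 2 and to 5 without any 1 of the MEF libraries; the 13 calls with F/R/C remained 13 without any 1 of the 6 libraries.

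Among nuclear genes, Uqcrfs1, the Rieske iron-sulfur protein of complex III, was at 47.3, 52.1 and 52.8 CPM in MEFs and 81.7, 98.4 and 97.7 CPM on day 2 of MyoD alone (log2 change 0.87, SE 0.13, adjusted p = 3.2e-06), with no overlap. Ndufv3, a complex I accessory subunit, was at 66.2, 50.8 and 42.1 CPM in MEFs and 34.9, 35.3 and 36.1 CPM on day 10 of MyoD alone, all lower (log2 change -0.58, SE 0.17, adjusted p = 0.0095). Atp5c1, the central stalk subunit of ATP synthase, also fell (log2 change -0.31, SE 0.11, adjusted p = 0.031). With F/R/C, Atp5g3, another ring subunit, was at 291, 399 and 397 CPM on day 2 against 159, 149 and 138 CPM in MEFs, well apart (log2 change 1.29, SE 0.16, adjusted p = 2.3e-07). The testis-type isoform Cox6b2 was at 17.5, 27.8 and 20.4 CPM in MEFs and 5.21, 3.44 and 4.76 CPM on day 2 of MyoD alone, all lower (log2 change -2.29, SE 0.76, adjusted p = 0.018).

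The muscle-type isoforms of complex IV differed from both sums in their order of groups. Cox6a2, Cox7a1 and Cox8b are the heart and skeletal muscle forms of small subunits whose widely expressed forms are Cox6a1, Cox7a2 and Cox8a. In mouse annotation GRCm38, Cox6a2 lies at chr7:128205435-128206387, Cox7a1 at chr7:30184144-30186078 and Cox8b at chr7:140898945-140900446. Their widely expressed counterparts lie on 3 other chromosomes, Cox6a1 on 5, Cox7a2 on 9 and Cox8a on 19. Reads of the 3 muscle-type genes were whole in every library, whereas some reads of all 3 counterparts were divided with other genes, as in 71 of the 102 members, so the counterparts' levels are the less certain.

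Cox6a2 was near 0 in MEFs, at 0.132, 0 and 0.0634 CPM. With MyoD alone it was at 4.43, 8.03 and 8.27 CPM on day 2 and 16.1, 23.9 and 24.5 CPM on day 4, then 36.3, 75.4 and 48.5 CPM on day 10. Addition of F/R/C gave 8.22, 21.4 and 19.8 CPM on day 2, 61.2, 128 and 120.1 CPM on day 4 and 41.5, 84.3 and 135 CPM on day 10. All treated libraries lay above MEFs, and both treatments were apart on day 4 and overlapped on days 2 and 10. F/R/C was higher on day 4 (log2 change 2.26, SE 0.73, adjusted p = 0.023) and in the average over days (log2 change 1.499, SE 0.32, adjusted p = 1.4e-04).

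Cox8b showed no such difference. It was at 0.132, 0 and 0 CPM in MEFs, at 13.3, 31.2 and 17.8 CPM on day 4 of MyoD alone and at 11.9, 25.9 and 27.2 CPM with F/R/C. On day 10 the values were 9.77, 27.5 and 10.7 CPM and 3.86, 4.97 and 15.5 CPM, with overlap on both days and a log2 fold change of -0.55 with SE 0.35 and adjusted p = 0.18 in the average, which did not pass. In MEFs, Cox6a2 and Cox8b had at most 3 reads per library, so no fold against MEFs is given; both were called higher in MyoD alone on day 2 (adjusted p = 9.2e-05 and 1.7e-05).

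Cox7a1, by contrast, was not called against MEFs on day 10 of either route. It was at 1.93, 0.65 and 1.08 CPM in MEFs, 0.27, 0.711 and 0.827 CPM on day 4 of MyoD alone and 2.27, 4.42 and 7.33 CPM with F/R/C on that day. The treatments did not overlap, and the log2 fold change of 2.95 with SE 0.67 and adjusted p = 0.0016 was the largest nuclear difference called on day 4; the average over days was a log2 fold change of 2.29 with SE 0.30 and adjusted p = 7.8e-08. By day 10 of F/R/C it was at 0.676, 1.51 and 2.68 CPM against 0.509, 0.396 and 0.906 CPM. Established bulk iMPCs had the highest levels of all groups, 9.31, 8.26 and 7.37 CPM, above every library on day 10 of F/R/C (log2 change 2.35, SE 0.63, adjusted p = 0.0079).

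The counterparts rose with F/R/C as other nuclear genes did. Cox7a2 was at 63.3, 75.9 and 71.9 CPM on day 4 of MyoD alone and 119, 161 and 144 CPM with F/R/C, with no overlap, and rose in the average over days (log2 change 0.78, SE 0.06, adjusted p = 4.4e-12). The averages of Cox8a (log2 change 0.67, SE 0.07, adjusted p = 2.3e-10) and Cox6a1 (log2 change 0.53, SE 0.09, adjusted p = 1.3e-05) were of like size. In deposited TPM, Cox6a2 made up 28.0% ± 11.7 (SD, n = 3) of Cox6a1 and Cox6a2 together on day 10 of MyoD alone, and 33.0% ± 16.5 of them with F/R/C. The Cox8b share of its pair averaged 21.5% on day 10 of MyoD alone, against 7.89% with F/R/C, with ranges of 14.9% to 33.4% and 3.65% to 15.5% that overlapped. These ranges also overlapped on days 4, 6 and 8. On day 2 they were apart, at 10.7% to 14.5% with MyoD alone and 3.87% to 8.58% with F/R/C. Cox7a1 never exceeded 12.6% of its pair, the highest bulk iMPC library.

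Isoforms of other tissues ranged from Cox8c, which was not detected, to the testis-type Cox6b2, with a mean of 44.2 TPM over all libraries. The lung-type Cox4i2 was at 0.139, 0.0495 and 0 CPM on day 10 of MyoD alone, at most 3 reads per library, and 0.517, 0.876 and 3.07 CPM with F/R/C (adjusted p = 0.0054). Cox6b2 was higher with F/R/C in the average over days (log2 change 0.92, SE 0.33, adjusted p = 0.015).

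**Figure D3:**
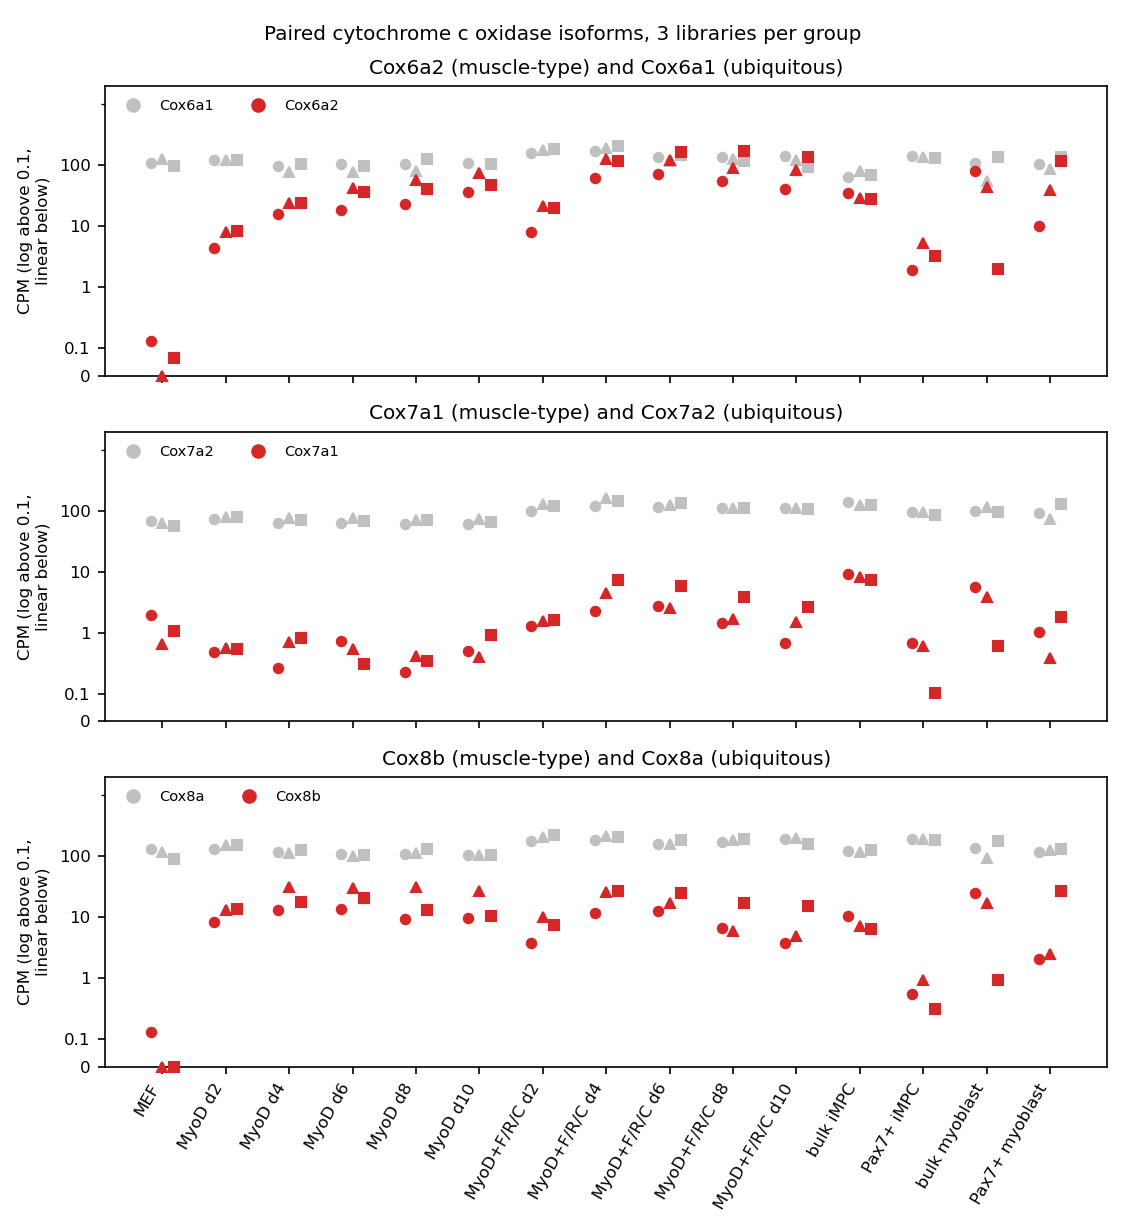
Level in CPM of the muscle-type complex IV genes Cox6a2, Cox7a1 and Cox8b and of their ubiquitous counterparts Cox6a1, Cox7a2 and Cox8a in every library, on an axis that is logarithmic above 0.1 and linear below. Points are libraries by group; Cox6a2 and Cox8b are near 0 in MEFs and low in sorted Pax7+ iMPCs, and the counterparts vary little by comparison.

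In both myoblast groups the replicates had the same order in the muscle-type isoforms Cox6a2 and Cox8b as in summed muscle differentiation genes. Bulk myoblasts had 79.4, 43.7 and 2.04 CPM of Cox6a2 and 24.6, 17.3 and 0.946 CPM of Cox8b, and replicate 3, the library with few muscle differentiation transcripts, was far below the other 2. Sorted Pax7+ myoblasts had 9.99, 39.4 and 117 CPM of Cox6a2, beside summed muscle differentiation genes of 4426, 5537 and 15563 CPM. Sorted Pax7+ iMPCs had 1.91, 5.29 and 3.31 CPM of Cox6a2 and 0.563, 0.929 and 0.31 CPM of Cox8b, beside 1414 to 1949 CPM of those genes, and bulk iMPCs 35.2, 29.3 and 28.6 and 10.6, 7.27 and 6.34 CPM, beside 22483 to 29268 CPM. The part of muscle differentiation in these levels was not tested.

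The promoters of Cox7a1 and Cox8b, of the muscle type, and of 1 widely expressed counterpart, Cox6a1, are shown because the levels of these genes moved apart. Cox6a2 had no promoter in the RefSeq table and is not shown. Each sequence is the 250 bases before the RefSeq start on the gene's strand, in build GRCm38.p6, read 5′ to 3′, with capitals marking matches to the motifs named after it.

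Cox7a1 (chr7:30183921-30184170, plus strand): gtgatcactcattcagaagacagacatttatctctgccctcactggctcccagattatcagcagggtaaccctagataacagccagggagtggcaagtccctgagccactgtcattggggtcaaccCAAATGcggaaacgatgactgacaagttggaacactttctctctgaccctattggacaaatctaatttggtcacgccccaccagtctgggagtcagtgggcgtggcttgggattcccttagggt

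Cox8b (chr7:140900447-140900696, minus strand): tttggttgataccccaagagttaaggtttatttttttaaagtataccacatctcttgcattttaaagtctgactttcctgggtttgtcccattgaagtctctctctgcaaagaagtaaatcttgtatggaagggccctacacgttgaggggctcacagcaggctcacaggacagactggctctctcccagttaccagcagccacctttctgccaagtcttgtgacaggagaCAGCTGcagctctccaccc

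Cox6a1 (chr5:115348959-115349208, minus strand): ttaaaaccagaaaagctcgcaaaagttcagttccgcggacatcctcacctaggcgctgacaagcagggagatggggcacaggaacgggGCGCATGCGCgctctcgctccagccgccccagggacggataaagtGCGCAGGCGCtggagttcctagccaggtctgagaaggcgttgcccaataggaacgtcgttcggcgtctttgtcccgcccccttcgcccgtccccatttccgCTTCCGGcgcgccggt

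The letters searched on both strands were the E-box CANNTG, the site class of MyoD and related factors, the NRF1 motif (GCGC and TGCGC with any 1 base between), the GABPA motif CCGGAAG and the MEF2 motif (CTA and TAG with any 4 bases between). Cox7a1 and Cox8b each held 1 E-box, and Cox6a1 held 2 NRF1 matches and 1 GABPA match. The other widely expressed counterparts, Cox7a2 and Cox8a, each held 1 E-box and 0 NRF1 or GABPA matches, like both muscle-type genes shown, so these letters did not separate the muscle-type from the widely expressed genes. Of the 88 nuclear members looked up, which left out the second Atp5o entry, 70 had a promoter in the RefSeq table. NRF1 letters were in 13 of these 70 (18.6%), against 4.23% of 27025 genes with a promoter of that length. GABPA letters were in 14 (20%) against 7.83%, E-boxes in 43 (61.4%) against 69.3%, and MEF2 letters in 1 (1.43%) against 3.7%. A match is a description of these letters and not evidence of binding.

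Between sorted Pax7+ iMPCs and myoblasts the mitochondrial genes differed as a set, while most nuclear genes were not called. All 13 mitochondrial genes fell in sorted Pax7+ iMPCs relative to sorted Pax7+ myoblasts, with a median log2 fold change of -1.37, against 22.5% of all genes higher and 25% lower. Of the 87 nuclear genes, 26 rose, 5 fell and 56 were not called, with a median of 0.18. The nuclear sums of both groups overlapped, at 11.3 to 11.6 kCPM in iMPCs and 8.17 to 11.6 kCPM in myoblasts. For mt-Co1 the levels were 5359.6, 7750.5 and 7527 CPM in iMPCs and 15471, 22575 and 24541 CPM in myoblasts, and for mt-Nd4, a proton-pumping subunit of complex I, 1889.8, 2455 and 2297 and 5216, 4369 and 7733 CPM. Neither gene overlapped (log2 change -1.60, SE 0.32, adjusted p = 1.0e-04 and log2 change -1.38, SE 0.34, adjusted p = 0.0011). Between 11 and 13 of the mitochondrial genes were called when any 1 of the 6 libraries was left out. Summed proliferation genes were at 2296 to 2870 CPM in sorted iMPCs and 640 to 1249 CPM in sorted myoblasts. Summed muscle differentiation genes were at 1414 to 1949 CPM and 4426 to 15563 CPM. Sorted myoblast replicate 3, the highest in mitochondrial level, was highest of its group in muscle differentiation genes and lowest in proliferation genes. The part of these in the mitochondrial difference was not tested.

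mt-Nd6 had the largest of these differences. It is the one subunit read from the other strand of mitochondrial DNA, from M:13552-14070, and its end overlaps mt-Nd5 (M:11742-13565). Its mean of 59.7 TPM over all libraries was far below the 2473 to 11954 TPM of the other 12. Reads of mt-Nd6 and mt-Nd5 were whole in every library, so none were divided between them. Strand settings are not given, so reads of the opposite strand may be among those of mt-Nd6, and its level is uncertain. It was at 4.55, 5.62 and 7.03 CPM in sorted iMPCs and 27.3, 69.6 and 59.8 CPM in sorted myoblasts, with no overlap (log2 change -3.19, SE 0.34, adjusted p = 1.2e-08).

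Cox6a2 and Cox8b were lower in sorted iMPCs (log2 change -3.98, SE 0.80, adjusted p = 1.3e-04 and log2 change -4.07, SE 0.93, adjusted p = 5.8e-04), with Cox8b at 2.05, 2.54 and 26.6 CPM in the sorted myoblasts, and Ndufa11, a membrane-arm subunit of complex I, also fell (log2 change -0.75, SE 0.20, adjusted p = 0.0024). Ndufc2, another membrane-arm subunit, was at 61.4, 74.2 and 96.1 CPM in sorted iMPCs and 28.5, 30.7 and 50.1 CPM in sorted myoblasts, without overlap (log2 change 1.08, SE 0.20, adjusted p = 4.0e-05). Ndufa4l2 was called higher (adjusted p = 1.8e-04) and so was Atp5g2, a ring subunit (log2 change 0.86, SE 0.16, adjusted p = 3.8e-05).

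Sorted cells were also set beside the bulk culture of their own kind. In iMPCs, 9 of 13 mitochondrial genes fell on sorting and 0 rose, and 13 nuclear genes rose and 32 fell (21% of all genes higher and 27.6% lower, with an all-gene median of -0.13 on the log2 scale). The medians were -1.0 and -0.23. In myoblasts, 11 mitochondrial genes rose and 0 fell, and 1 nuclear gene rose and 12 fell (4.64% and 7.24%), with medians of 1.47 and -0.11. The difference between the 2 sorting effects, an interaction added after these values were seen, was called for all 13 mitochondrial genes, all lower in iMPCs, from -1.93 for mt-Co3 to -4.20 for mt-Nd6, against 15.4% and 17.5% of all genes. All 13 remained called when any 1 of the 12 libraries was left out. Of the nuclear genes 11 were higher and 11 lower, and 8 were called in all without bulk myoblast replicate 3. Fitted on these 12 libraries alone, 12 mitochondrial genes (all but mt-Nd5) and 0 nuclear genes passed, 12 members against 35.

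Within iMPCs, Cox7a1 (log2 change -4.11, SE 0.70, adjusted p = 1.8e-05), Cox8b and Cox6a2 fell most on sorting, while Cox6a1 was at 141, 139 and 134 CPM in sorted and 64.6, 80.0 and 70.6 CPM in bulk iMPCs (log2 change 0.94, SE 0.21, adjusted p = 5.0e-04), without overlap. Uqcr11 and Ndufb7, a complex I subunit, also rose (log2 change 0.76, SE 0.23, adjusted p = 0.0078 and log2 change 0.70, SE 0.17, adjusted p = 0.0012). The transcripts of these 3 genes had GC contents of 58.8%, 58.9% and 59.7%, above the nuclear median of 52.2%. Of the 43 nuclear genes with the higher GC content 10 rose and 11 fell on sorting, and of the 44 with the lower 3 rose and 21 fell. The part of base composition in this comparison was not tested. Within myoblasts Uqcrq, which helps bind ubiquinone in complex III, was at 57.3, 46.4 and 57.3 CPM in sorted and 126, 41.4 and 140.0 CPM in bulk cells, where bulk replicate 2 lay below all sorted libraries and the other 2 above them (log2 change -0.93, SE 0.22, adjusted p = 0.0057). Ndufa3 and Ndufc1 of complex I fell as well, and Ndufa12, also of complex I, was the nuclear gene that rose (log2 change 0.70, SE 0.17, adjusted p = 0.0081). The nuclear count of 13 was 6 without bulk myoblast replicate 1 and 2 without sorted myoblast replicate 2, and the mitochondrial count was 7 without sorted myoblast replicate 3. Fitted on these 6 libraries alone, without the spread of the other groups, 0 of the 24 members called for myoblasts passed.

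Between established bulk iMPCs and day 10 of F/R/C, 0 of 13 mitochondrial genes were called in edgeR's test, 0 by DESeq2 and 0 at an unadjusted p under 0.05 (median 0.11), while 23 nuclear genes were higher and 15 lower, against 8.98% and 11.5% of all genes. Against MEFs all 13 mitochondrial genes were higher (median 1.56), and 61 nuclear genes were higher and 7 lower (28.5% and 25.7%). Against bulk myoblasts 11 mitochondrial genes were higher (median 0.92), and 30 nuclear genes were higher and 5 lower (16.1% and 16.8%). For mt-Co1 the levels were 16619.9, 11641 and 15931 CPM in bulk iMPCs and 5825, 12675 and 4725 CPM in bulk myoblasts, where replicate 2 lay inside the iMPC range (log2 change 0.93, SE 0.31, adjusted p = 0.02). These 11 calls depended on single libraries: 0 were left without bulk myoblast replicate 1 or bulk iMPC replicate 1, 1 without bulk myoblast replicate 3 and 5 without bulk iMPC replicate 3. Fitted on these 6 libraries alone, 2 of all members passed, against 46. The 35 nuclear calls became 17 without bulk myoblast replicate 3 and 23 without bulk iMPC replicate 1, and in the comparison with day 10 the 38 became 25 without F/R/C replicate 1 of that day.

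Uqcrq had the largest called decrease among nuclear genes in bulk iMPCs relative to day 10, at 38.8, 42.4 and 34.8 CPM against 100.2, 95.1 and 87.7 CPM on day 10 of F/R/C (log2 change -1.29, SE 0.22, adjusted p = 1.4e-04), without overlap. Ndufs7, an iron-sulfur subunit of complex I, and Uqcr11 followed (log2 change -1.05, SE 0.26, adjusted p = 0.0042 and log2 change -0.94, SE 0.23, adjusted p = 0.0045). Uqcrb of complex III and Sdhaf4, a complex II assembly factor, were higher (log2 change 0.80, SE 0.22, adjusted p = 0.0086 and log2 change 0.75, SE 0.19, adjusted p = 0.0051). Ndufv3 stood out against bulk myoblasts, at 83.7, 94.1 and 74.9 CPM and 40.4, 33.6 and 28.4 CPM, well apart (log2 change 1.30, SE 0.17, adjusted p = 1.3e-06).

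The base composition of the nuclear genes moved with these bulk differences. Across the 87 nuclear genes, the log2 fold change of bulk iMPCs against day 10 of F/R/C had a Spearman correlation of -0.565 with the GC content of the transcripts (-0.392 across all genes), a description over genes that share the same libraries. Of the 43 genes with the higher GC content 4 rose and 13 fell, and of the 44 with the lower GC content 19 rose and 2 fell. The same correlation was -0.442 for bulk iMPCs against MEFs, -0.384 against bulk myoblasts and 0.405 for sorted against bulk iMPCs. For F/R/C against MyoD alone it lay between -0.125 and 0.077. Within single libraries, the median of high-GC minus that of low-GC nuclear genes, relative to its mean over libraries, lay between -0.618 and -0.340 (log2) in the 4 most deeply sequenced libraries, the 3 bulk iMPC libraries and bulk myoblast replicate 2, and between -0.269 and 0.233 in the other 41. Of the 100 members tested, 2 (Ndufa13 and Uqcrq) were lower in each of those 4 libraries than in all of the other 41, and 0 were higher. With bulk myoblast replicate 1 or 3 in place of replicate 2, 0 members were set apart. The share of all genes set apart in this way is not given here, so whether these 2 are unusual cannot be said. The part of depth or base composition in the bulk iMPC differences was not tested.

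**Figure D4:**
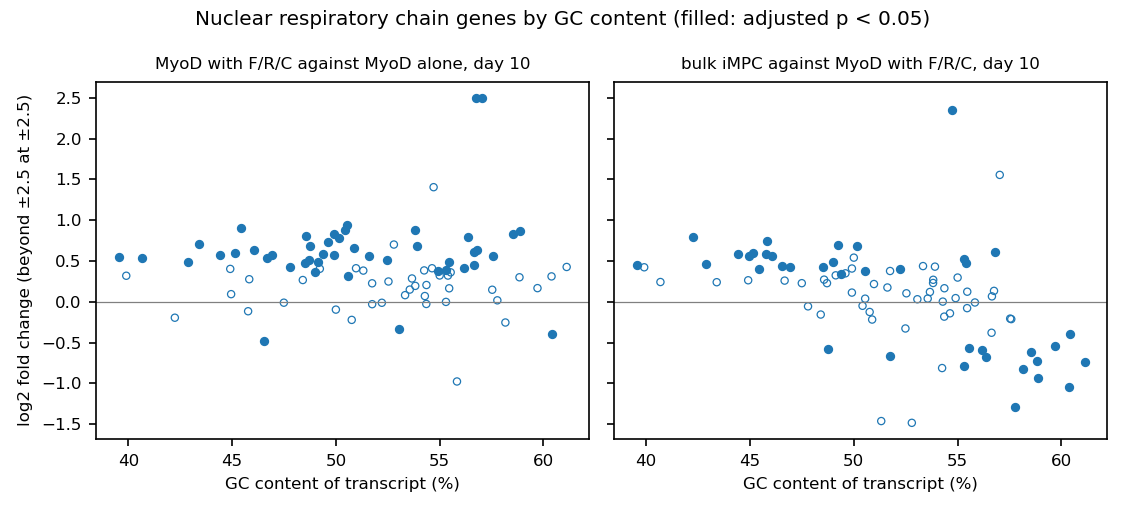
Log2 fold change of each tested nuclear respiratory chain gene (vertical axis, values beyond 2.5 drawn at the edge) against the GC content of its transcript in percent (horizontal axis), for F/R/C against MyoD alone on day 10 and for bulk iMPCs against day 10 of F/R/C. Points are genes, filled where called; in the second panel most called genes of high GC content lie below 0 and most of low GC content above 0, and the first panel has no such order.

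Genes that regulate mitochondrial number and transcription were followed from lists of pathway genes. Of 12 regulators of mitochondrial biogenesis, 5 rose and 3 fell with F/R/C in the average over days, of 22 mitochondrial DNA expression genes 14 rose and 3 fell, of 17 carriers and muscle mitochondrial genes 7 rose and 4 fell, of 13 tricarboxylic acid cycle genes 12 rose and 0 fell, and of 37 assembly factors 18 rose and 6 fell. Of all genes 28.7% rose and 32.8% fell in that average. Ppargc1b, a coactivator of nuclear mitochondrial genes, was at 6.03, 8.33 and 5.33 CPM on day 4 of MyoD alone and 41.2, 58.8 and 55.0 CPM with F/R/C, without overlap (log2 change 2.97, SE 0.40, adjusted p = 3.2e-06). Its better known relative Ppargc1a was at 2.34, 4.98 and 1.91 and 3.42, 7.32 and 13.8 CPM, with overlap, and rose only in the average over days (log2 change 1.28, SE 0.27, adjusted p = 1.5e-04), not on any single day.

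The nuclear receptor Esrrg, a partner of these coactivators in oxidative muscle, was at 0.946, 1.07 and 0.621 CPM on day 4 of MyoD alone and 21.6, 32.2 and 13.5 CPM with F/R/C, well apart (log2 change 4.67, SE 0.96, adjusted p = 6.0e-04). On day 10 it did not pass (log2 change 0.39, SE 0.83, adjusted p = 0.74), and the F/R/C effect itself was lower on day 10 than on day 2 (log2 change -4.14, SE 1.29, adjusted p = 0.041). Its relative Esrrb went the other way on day 10, 13.2, 29.0 and 10.4 CPM against 1.35, 2.09 and 6.39 CPM (log2 change -2.41, SE 0.66, adjusted p = 0.0044), also without overlap. Perm1, a muscle regulator of these receptors' targets, rose in the average over days (log2 change 1.94, SE 0.44, adjusted p = 3.1e-04). Of the single days it passed on day 2 only (adjusted p = 0.035). On that day Perm1 was called lower in MyoD alone than in MEFs (adjusted p = 0.018), and F/R/C against MEFs did not pass (adjusted p = 0.84).

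Tfam, which packages mitochondrial DNA and starts its transcription, was at 20.9, 24.4 and 21.6 CPM on day 10 of MyoD alone and 40.9, 43.2 and 32.0 CPM with F/R/C, without overlap (log2 change 0.79, SE 0.16, adjusted p = 2.3e-04). Lrpprc, which stabilises mitochondrial mRNAs, was at 100.2, 124 and 115 CPM on day 4 and 228, 318 and 317 CPM with F/R/C (log2 change 1.35, SE 0.17, adjusted p = 1.3e-06), again apart. Tefm, the elongation factor of mitochondrial transcription, rose and Top1mt, the mitochondrial topoisomerase, fell in the average over days (log2 change 0.75, SE 0.10, adjusted p = 1.0e-07 and log2 change -0.82, SE 0.14, adjusted p = 9.8e-06).

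Among carriers, myoglobin (Mb), the oxygen store of oxidative muscle, was at 187, 280.2 and 143 CPM on day 4 of MyoD alone and 50.5, 63.6 and 31.1 CPM with F/R/C. Every library with F/R/C was lower (log2 change -2.07, SE 0.74, adjusted p = 0.041), so Mb and Cox6a2 went in opposite directions on that day. Cpt1b, the muscle enzyme for fatty acid entry, rose and the uncoupling protein gene Ucp2 fell in the average over days (log2 change 2.87, SE 0.39, adjusted p = 1.8e-07 and log2 change -2.09, SE 0.23, adjusted p = 1.8e-09). Slc25a4, the muscle ADP/ATP carrier, rose by less (log2 change 0.31, SE 0.06, adjusted p = 1.5e-05).

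In the sorted cells, Ppargc1a was at 0.563, 0.0808 and 0.155 CPM in Pax7+ iMPCs and 24.4, 38.1 and 24.5 CPM in Pax7+ myoblasts, with a wide gap (log2 change -6.73, SE 0.79, adjusted p = 5.2e-08). Esrrb and Esrrg were also lower in the iMPCs (log2 change -5.50, SE 0.84, adjusted p = 4.0e-06 and log2 change -3.03, SE 0.92, adjusted p = 0.0072). Tfam, at 50.3, 62.9 and 67.3 CPM and 47.9, 37.3 and 66.4 CPM, overlapped (log2 change 0.25, SE 0.16, adjusted p = 0.19) and did not pass the test. Ppargc1b overlapped too, at 21.1, 28.0 and 31.0 and 13.2, 23.7 and 15.8 CPM (log2 change 0.60, SE 0.37, adjusted p = 0.19).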

How the data were processed

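Poly-A-selected RNA was sequenced from 45 mouse libraries, 3 in each of 15 groups. Per the submitters' processing notes, the authors used bcl2fastq 2.19, Trimmomatic 0.36, kallisto 0.44, edgeR 3.28 and build GRCm38.p6. The deposited tables give an estimated count and TPM for each transcript, per the file headers. Strand and fragment settings are not given in the sources used here.

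Estimated counts were summed over each gene's transcripts with the GENCODE M21 annotation, which held 121104 of 121843 transcripts, and 99.4% to 99.8% of reads. They were rounded to whole numbers and tested in edgeR 4.0.16 (R 4.3.3) by the quasi-likelihood test with TMM scaling, all 45 libraries in 1 fit with a mean per group and 30 residual degrees of freedom. The 17325 genes kept by edgeR's filter by group were tested, and p-values were adjusted by the Benjamini-Hochberg method over them. CPM are counts scaled to TMM-adjusted library sizes. Depth limits genes near 0, where 3 reads is the floor used. On simulated counts for F/R/C against MyoD alone on day 10, with 200 of 17325 genes changed 4-fold, 139 were called, 130 of them changed ones (65%) and 9 false.

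Alternatives were DESeq2 1.42.0, RLE size factors, library sizes without mitochondrial genes, no filter, a 2-fold minimum, only the groups compared, a replicate block, deposited TPM and leaving out each library. Another 3 choices were made after seeing the data: the sorting interaction, a fit without replicate 2 of the time course, and removal of genes that set the 4 deepest libraries apart. Replicate numbers come from the sample titles. Same-numbered samples of both treatments deviated together on days 2, 4 and 6 (mean correlations 0.364, 0.297 and 0.295, every pair over 0.1) and less so on days 8 and 10 (lowest 0.079 and 0.062). Replicates in no other comparison were paired by any label.

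Named were all mitochondrial genes, the complex IV isoforms, up to 3 nuclear genes called higher and 3 lower per comparison, the nuclear gene of highest TPM per complex, and up to 3 called genes per regulator list with Ppargc1a, Tfam and Slc25a4. The members and lists were chosen with earlier results of these data known.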

Additional observations from a re-analysis of the deposited data

Results flagged for a closer look

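A test of the difference itself in edgeR called a change of the F/R/C effect between day 2 and day 10 for Ndufa13 (change in log2 fold change -0.65, adjusted p = 0.043) and Sdhaf2 (-0.54, adjusted p = 0.015). They were the only 2 members called, against 3.47% of all genes higher and 5.17% lower. Leaving out any 1 of the 12 libraries left 0 or 1 of these calls. Both were also lost without the filter on low counts, or without replicate 2 of the time course.

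The effect of sorting for Pax7-nGFP differed between iMPCs and myoblasts, by a test of the difference itself, for all 13 mitochondrially encoded genes. The differences, iMPCs minus myoblasts on the log2 scale, were -2.21 for mt-Nd1, -2.40 for mt-Nd2, -2.36 for mt-Nd3, -2.30 for mt-Nd4, -2.22 for mt-Nd4l, -2.13 for mt-Nd5 and -4.20 for mt-Nd6 in complex I. They were -2.27 for mt-Cytb in complex III, -2.53 for mt-Co1, -2.41 for mt-Co2 and -1.93 for mt-Co3 in complex IV, and -1.98 for mt-Atp6 and -2.11 for mt-Atp8 in complex V.

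The same test called nuclear genes in both directions. The muscle-type Cox6a2 (-3.56), Cox7a1 (-2.46) and Cox8b (-3.24) had lower values in iMPCs by this measure, and Ndufc2 (0.98), Sdhaf1 (0.96) and Uqcrq (1.53) had higher ones. Uqcrq was at 34.8 to 42.4 CPM in bulk iMPCs and at 41.4 CPM in bulk myoblast replicate 2, the 4 most deeply sequenced libraries, and higher in each of the other 41, and the part of depth in its value was not tested. Fitted on the 12 libraries of this interaction alone, 12 mitochondrial genes and 0 nuclear genes were called, against 13 and 22 with all libraries. This interaction was chosen after its values were seen. The sorted libraries of both kinds share the effective length setting that sets them apart from the bulk libraries.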

How the results depend on the processing

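No tested single-gene result changed direction under any alternative run. Among the untested sums, the nuclear level on day 8 of MyoD alone relative to MEFs was 1.08-fold in CPM and 0.998-fold in TPM. Counts below are members called, of 100 tested. With a minimum of 2-fold, F/R/C against MyoD alone had 0 on day 2, 10 on day 4, 4 on day 6, 3 on day 8, 3 on day 10 and 3 in the average. The same minimum left 4 for MyoD alone day 2 and 7 for day 10 against MEF, 8 and 19 for F/R/C day 2 and day 10, and 38 for bulk iMPC against MEF. It left 3 for bulk iMPC against F/R/C day 10, 8 against bulk myoblast, 17 for Pax7+ iMPC against Pax7+ myoblast, 11 for Pax7+ against bulk iMPC, 11 for Pax7+ against bulk myoblast, 0 for the change from day 2 to day 10 and 18 for the sorting interaction. Fits on only the groups compared, with fewer residual degrees of freedom, called 5 for MyoD alone day 10 against MEF, 22 for bulk iMPC against F/R/C day 10, 2 against bulk myoblast, 25 for Pax7+ iMPC against Pax7+ myoblast, 0 for Pax7+ against bulk myoblast and 12 for the sorting interaction. Without replicate 2 of all time-course groups the counts were 3 on day 2 of F/R/C, 11 and 4 for MyoD alone day 2 and day 10 against MEF, and 16 for bulk iMPC against F/R/C day 10. Without the filter MyoD alone day 2 had 17. The 2 calls of the change from day 2 to day 10 became 0 without the filter, 0 without replicate 2 of the time course, 1 with RLE size factors and 1 with library sizes without mitochondrial genes; the cause was not tested.

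Leaving out single libraries gave these ranges: for F/R/C, 10 to 36 on day 2, 52 to 61 on day 4, 36 to 46 on day 6, 37 to 46 on day 8, 41 to 67 on day 10 and 74 to 87 in the average. Against MEF they were 11 to 23 for MyoD alone day 2, 4 to 22 for day 10, 62 to 74 for F/R/C day 2, 66 to 79 for day 10 and 73 to 82 for bulk iMPC. For bulk iMPC they were 25 to 33 against F/R/C day 10 and 18 to 61 against bulk myoblast. For sorted cells they were 41 to 54 between kinds, 40 to 45 in iMPCs and 13 to 25 in myoblasts, with 0 to 1 for the change from day 2 to day 10 and 21 to 40 for the sorting interaction. With the replicate block no count moved by over 1.5 times: it gave 34, 60, 47, 44 and 50 on the 5 days of F/R/C against MyoD alone, 80 in the average and 2 for the change from day 2 to day 10, and 1 of 224 single-gene results lost its call. Of those results 3 lost it with DESeq2, 9 with RLE size factors, 10 with library sizes without mitochondrial genes, 25 without the filter, 64 with only the groups compared, 40 without replicate 2 of the time course (71 kept it, and it does not bear on the others), and 89 under the 2-fold minimum.

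In deposited TPM, sums relative to MEFs became 2.13-fold for mitochondrial genes in Pax7+ iMPCs (1.59 in CPM) and 6.44-fold in Pax7+ myoblasts. For nuclear genes they became 1.06, 1.05 and 1.02 on days 2, 4 and 6 of MyoD alone, 1.64, 1.44, 1.4 and 1.38 on days 4, 6, 8 and 10 of F/R/C, 1.31 in Pax7+ iMPCs and 1.47 in bulk iMPCs; the CPM values were 1.21, 1.21 and 1.17, then 1.94, 1.63, 1.49 and 1.48, then 1.53 and 1.58.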

Other observations

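The genes that feed and build the respiratory chain were counted beside it, without naming single genes. Of 13 tricarboxylic acid cycle genes, 12 rose and 0 fell on day 2 of F/R/C against MEFs (19.1% and 14.9% of all genes), 10 and 0 on day 10 (28.3% and 24.8%), and 11 and 0 in bulk iMPCs (28.5% and 25.7%), while day 10 of MyoD alone had 1 higher and 1 lower (19.3% and 10% of all genes). Of 37 assembly factors tested, 15 rose and 1 fell on day 2 of F/R/C against MEFs, and 16 rose and 7 fell on day 10, beside the same shares of all genes. These comparisons share the MEF libraries. In sorted against bulk cells, the 17 carrier and muscle mitochondrial genes had 0 higher and 10 lower in iMPCs (21% and 27.6% of all genes) and 0 higher and 8 lower in myoblasts (4.64% and 7.24%), whereas the 13 mitochondrially encoded genes had 9 lower in iMPCs and 11 higher in myoblasts.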
